A study of Mus musculus with 6 samples.

Results

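The nuclear-encoded subunits of the mitochondrial respiratory chain were followed in lung endothelial cells (ECs) of wild-type (WT) and leene-knockout (KO) mice. The genes were taken by name: every counted gene whose symbol begins with Ndufa, Ndufb, Ndufc, Ndufs or Ndufv and a number, every Uqcr, Atp5 and Cox4 to Cox8 gene, and Sdha to Sdhd, with at least 60 reads over the 6 libraries. This gave 81 of the 47729 counted genes, of which 35 belonged to complex I, 4 to complex II, 8 to complex III, 18 to complex IV (cytochrome c oxidase, with Ndufa4, Ndufa4l2 and Cox7a2l) and 16 to complex V (ATP synthase). All 81 passed the filter on low counts and were among the 14625 genes tested. A further 7 genes matched the names but had fewer than 60 reads. Of these, Cox7b2 and Cox8c, testis isoforms of complex IV, had 0 reads in every library. Cox6c2, Ndufs6b, Ndufa11b and Ndufb4c (annotated as processed pseudogenes) had 7, 2, 1 and 1, and Atp5l had 11. Atp5l is annotated as protein-coding, and reads that fit several places were not counted. Of the short sequence windows of its transcripts, 68.5% also occur in transcripts of other genes. The level of Atp5l can therefore not be read from its count. For the processed pseudogenes such windows made up 10.4% to 100%, and for Cox7b2 and Cox8c 0%. The lowest genes inside the limit were Cox8b with 83 reads, Cox7a1 with 125 and Atp5g2 with 234.

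Male mice aged 14 weeks received angiotensin II (AngII) at 1000 ng/kg/min from an osmotic pump for 2 weeks, in both genotypes, and there were no mice without AngII. The KO mice lack the mouse region homologous to human LINC00520 in every tissue, on the C57BL6 background. The labels name CD31 (Pecam1) as the marker used to enrich lung ECs and describe cells of 3 mice per group as pooled, whereas the methods of the study name CD144 (Cdh5) and 3 mice per group. The libraries, 3 WT and 3 KO, were therefore counted as the replicates, and the p-values measure the spread between libraries, which may be technical. RNA with a poly(A) tail was sequenced, and the values are reads counted per gene, given here as CPM, the count scaled to a common library size with trimmed-mean (TMM) factors.

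The respiratory chain passes electrons from NADH (complex I) and succinate (complex II) through complex III to oxygen at complex IV, and the proton gradient built on the way drives ATP synthesis by complex V. Most subunits are encoded in the nucleus and imported, while a small set of core subunits is encoded in mitochondrial DNA, so that an assembled complex needs transcripts from both genomes. ECs meet much of their ATP demand by glycolysis and are known for a modest mitochondrial content, and several complex IV subunits have isoforms tied to muscle, lung, testis or hypoxia.

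The libraries held between 24464324 and 35184063 counts. The targeted leene gene is not listed in the counted annotation and was not analysed here, so the genotype labels were not checked by it. The 15 EC markers were all detected, with a summed level of 2440 to 4435 CPM in WT and 2758 to 4441 CPM in KO. Alveolar type II (AT2) markers, which are not EC genes, were higher than the EC markers in every library, with a summed level of 5579, 52500 and 16150 CPM in WT 1, 2 and 3 and of 41300, 50310 and 40880 CPM in KO. So were markers of club and ciliated airway cells, at 16010, 41830 and 21120 CPM in WT and 35130, 58880 and 36760 CPM in KO. Macrophage markers summed to 1548, 13340 and 4847 CPM in WT and to 11930, 13520 and 11590 CPM in KO. WT library 1 stood apart, with the lowest AT2 sum and the largest TMM factor (1.374, against 0.8735 to 1.036 in the others). B cell markers moved with the genotype, as all 8 were higher in every KO library (summed level of 11.21 to 23.23 CPM in WT and of 78.32 to 83.38 CPM in KO). In such bulk samples fewer cells of a type and less RNA per cell cannot be told apart, and the part of these cell types in the values below was not tested.

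Some promoter windows of these genes, around the annotated start, hold recognition letters of a few factors known to act on respiratory genes. The windows of 4 complex IV genes are shown because the results below turn on these genes. The windows were read 5′ to 3′ on the strand of the gene from the RefSeq annotation of GRCm38.p6, from 250 bases before to 50 bases after the annotated start. Capitals mark the motif of GABPA (CCGGAAG, or CTTCCGG on the other strand) and that of NRF1, a palindrome of 10 letters that is the first run of capitals in the Cox6a1 window. Cox5a (chr9:57520982-57521281, plus strand), Cox6b1 (chr7:30626065-30626364, minus strand) and Cox6a1 (chr5:115348909-115349208, minus strand) encode subunits used in all tissues, and Cox7a1 (chr7:30183921-30184220, plus strand) encodes a muscle isoform.
Cox5a: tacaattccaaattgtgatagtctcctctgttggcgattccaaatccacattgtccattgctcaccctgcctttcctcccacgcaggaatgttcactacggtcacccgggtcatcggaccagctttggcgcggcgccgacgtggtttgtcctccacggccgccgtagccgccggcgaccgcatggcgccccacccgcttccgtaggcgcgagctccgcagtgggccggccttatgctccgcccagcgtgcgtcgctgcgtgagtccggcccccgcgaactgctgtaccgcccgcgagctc
Cox6b1: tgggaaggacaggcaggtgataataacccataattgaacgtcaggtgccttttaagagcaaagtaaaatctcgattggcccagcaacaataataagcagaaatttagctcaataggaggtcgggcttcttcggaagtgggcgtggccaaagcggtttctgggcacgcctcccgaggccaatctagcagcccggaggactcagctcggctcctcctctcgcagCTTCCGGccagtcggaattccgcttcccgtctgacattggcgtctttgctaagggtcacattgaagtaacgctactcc
Cox6a1: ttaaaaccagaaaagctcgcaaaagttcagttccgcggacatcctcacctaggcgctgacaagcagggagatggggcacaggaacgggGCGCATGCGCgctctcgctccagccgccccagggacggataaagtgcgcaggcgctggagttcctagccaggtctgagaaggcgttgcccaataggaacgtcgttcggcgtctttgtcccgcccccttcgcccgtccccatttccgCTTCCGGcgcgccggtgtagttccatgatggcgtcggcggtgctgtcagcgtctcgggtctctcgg
Cox7a1: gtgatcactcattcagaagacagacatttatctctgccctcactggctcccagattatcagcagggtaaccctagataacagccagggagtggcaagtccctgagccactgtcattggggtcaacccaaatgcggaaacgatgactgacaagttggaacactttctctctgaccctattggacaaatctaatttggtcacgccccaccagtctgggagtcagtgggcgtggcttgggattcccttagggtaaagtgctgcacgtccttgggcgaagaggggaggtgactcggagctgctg
The Cox6b1 window held GABPA letters, the Cox6a1 window held both motifs, and the Cox5a and Cox7a1 windows held neither.

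Such windows were found for 64 of the 81 subunit genes (69 windows, since some genes have more than 1 start). The GABPA letters were in 15 of the 69 windows (21.7%), against 8.86% of the 32817 promoter windows of all genes. The NRF1 letters were in 5 (7.2%, against 0.97%), the letters AAGATGGC of YY1 in 9 (13.0%, against 2.74%) and the letters TCAAGGTCA of the estrogen-related receptors in 2 (2.9%, against 0.42%), searched on both strands. The letters TATAAA of a TATA box were in 6 windows (8.7%, against 13.62%). The subunit windows had a median GC content of 57.3%, against 52.7% for all windows. The YY1 letters lay after the annotated start in most of their windows. Those of GABPA, NRF1 and the estrogen-related receptors lay on either side of it. A match of letters is a description of the window only, and its absence says nothing of the factor.

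The main question was whether deletion of leene was accompanied by another level of respiratory chain transcripts in ECs of AngII-infused mice. None of the 81 genes passed the test (edgeR's quasi-likelihood test, Benjamini-Hochberg adjusted p under 0.05 over all 14625 genes), and the lowest adjusted p among them was 0.476. Over all genes tested, 16 (0.109%) passed. DESeq2 called 0 of the 81 as well, against 187 of its 26134 genes (0.716%), and limma-voom called 0. At an unadjusted p under 0.05, 3 of the 81 were lower in KO (Cox5a, Cox6b1 and Uqcrq) and 0 were higher. That is 3.7% of the subunits, against 4.68% of all genes that were lower in KO at that p. By DESeq2, only Cox6b1 lay under 0.05 without adjustment (unadjusted p = 0.0498, from the fit across all genes), and by limma-voom 2 of the 81 did.

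**Figure D1:**
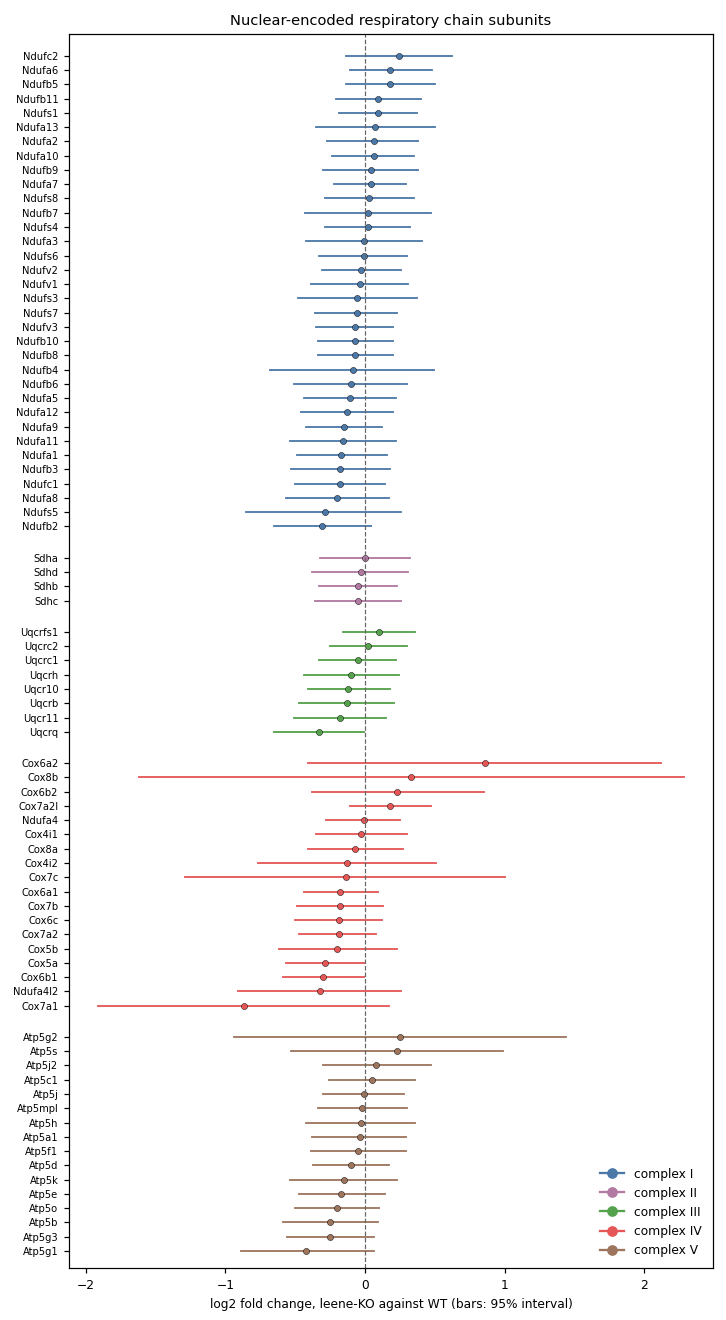
Log2 fold change of 80 of the 81 nuclear-encoded subunits in KO against WT (x axis), 1 line per gene on the y axis, grouped and coloured by complex and sorted within it, with points for the estimate of edgeR's quasi-likelihood fit and bars for its 95% interval. Most points lie close to 0, the intervals of Cox5a, Cox6b1 and Uqcrq end just below it, and the widest intervals belong to Cox8b, Cox6a2, Atp5g2, Cox7c and Cox7a1.

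The changes were small and mostly below 0. The log2 fold change (KO against WT) was negative for 57 of the 81 genes (70.4%), against 45.9% of all genes tested, with a median of -0.06 against 0.03. This count depends on the scaling and on single libraries: it was 62 with upper-quartile scaling or DESeq2, 67 with offsets for GC content and length and 72 with scaling by total counts, and 52 to 65 with 1 library left out. Below the median of all genes lay 62 subunits with the TMM scaling used here and 63 with total counts. It was smaller than 0.25 in size for 71 genes (87.7%, against 54.4% of all genes). The 95% interval lay within a 1.5-fold change in either direction for 63 (77.8%, against 31.8%) and within a 2-fold change for 76 (93.8%, against 61.8%). The 5 genes with wider intervals were Cox6a2, Cox7a1, Cox7c, Cox8b and Atp5g2, all at a mean below 6 CPM in both groups. The subunits were counted more deeply than most genes, with a median of 25.2 CPM against 10.1 CPM over all genes tested, and their median SD between libraries of a group was 0.14 on the log2 scale, against 0.28.

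The 3 KO values lay below the 3 WT values for 12 of the 81 genes (14.8%), against 9.2% of all genes tested. For 0 of the 81 they lay above, against 8.59% of all genes. The 12 were Ndufa9, Ndufa12, Ndufb2 and Ndufc1 of complex I, Uqcrq of complex III, Cox5a, Cox6a1, Cox6b1, Cox7a1 and Cox7a2 of complex IV, and Atp5b and Atp5g3 of complex V. With 3 libraries a group, an exact permutation test of such a gene cannot give a two-sided p below 0.1. The counts depend on the scaling. With total counts, 9 subunits were lower and 0 higher, against 6.9% and 4.46% of all genes. With offsets for GC content and length, 17 were lower and 1 higher, against 11.9% and 7.43%. Such counts rose when 1 library was left out, for the subunits as for all genes. Without WT library 2, 30 subunits were lower and 5 higher, against 20.2% and 21.2% of all genes. Without KO library 2, 26 were lower and 0 higher, against 13.9% and 12.2%, and without KO library 3, 16 were lower and 3 higher, against 13.7% and 13.9%.

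**Figure D2:**
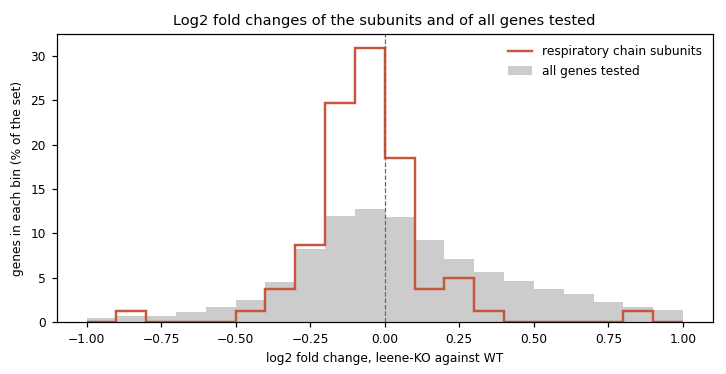
Share of genes (y axis, percent of each set) in bins of 0.1 of the log2 fold change in KO against WT (x axis), for the 81 subunits (line) and all 14625 genes tested (grey bars). The subunits gather in the bins around 0, with 24.7% between -0.2 and -0.1 and 30.9% between -0.1 and 0, and 4.5% of all genes lie outside the plotted range.

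Summed over the 81 genes, the level was 2480, 2403 and 2615 CPM in WT and 2296, 2471 and 2360 CPM in KO. KO library 2 lay above WT library 2, so the groups overlapped. By complex, the median log2 fold change was -0.04 for complex I, -0.04 for complex II, -0.11 for complex III, -0.16 for complex IV and -0.05 for complex V.

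**Figure D3:**
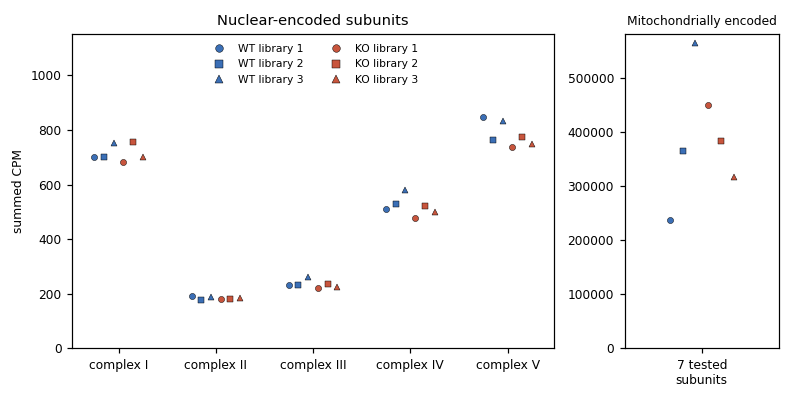
Summed CPM per library (y axes) of the nuclear-encoded subunits of each complex (left panel) and of the 7 tested mitochondrially encoded subunits (right panel, another scale), with 1 point per library, blue for WT and red for KO. The points of both genotypes overlap in all 5 complexes, and the mitochondrially encoded sum spreads from 237200 to 564700 CPM within WT.

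Complex I takes electrons from NADH. The core subunits encoded in the nucleus that are described here, which belong to the arm that carries the flavin and the iron-sulfur clusters, had log2 fold changes between -0.06 and 0.09. Ndufv1, which binds NADH, had 27.4, 23.8 and 21.7 CPM in WT and 21.7, 22.0 and 27.3 CPM in KO. Ndufs1, the largest core subunit, measured 17.7, 19.6 and 18.9 CPM in the WT and 18.7, 21.2 and 20.1 CPM in the KO libraries (log2 fold change 0.09 ± 0.12, standard error (SE), n = 3 per group, adjusted p = 0.792, edgeR). The groups overlapped for each of these core subunits. Ndufv2, Ndufs3, Ndufs7 and Ndufs8 had log2 fold changes of -0.03, -0.06, -0.06 and 0.03.

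Of the 28 supernumerary subunits, which surround the core and serve assembly and stability, 17 had a negative and 11 a positive log2 fold change. Ndufb2 had the lowest value of the complex, with 11.3, 10.3 and 12.5 CPM in WT and 8.42, 9.93 and 9.21 CPM in KO. All 3 KO values were below the WT values, by 0.31 ± 0.15 on the log2 scale (SE, n = 3 per group, adjusted p = 0.516, edgeR). Ndufc2 had the highest value, 0.24 ± 0.17 (adjusted p = 0.626), and its groups overlapped (19.5, 24 and 26.9 CPM in WT, 27.4, 31.5 and 24.1 CPM in KO).

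Complex II, succinate dehydrogenase, is the only complex with all of its subunits encoded in the nucleus, and it is shared with the tricarboxylic acid cycle. Its 4 genes had log2 fold changes from -0.05 to 0, and the groups overlapped for each of them. Sdha, the flavin-binding catalytic subunit, had 83.1, 66.3 and 72.4 CPM in WT and 68.6, 73.1 and 80.1 CPM in KO, a mean of 73.9 CPM in both groups (SD 8.46 and 5.78, n = 3 each). Its log2 fold change had a 95% interval from -0.32 to 0.32. Sdhb, the iron-sulfur subunit, and the membrane anchors Sdhc and Sdhd had intervals within -0.38 and 0.31.

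Complex III passes electrons to cytochrome c. Its core proteins Uqcrc1 and Uqcrc2 and the Rieske iron-sulfur protein Uqcrfs1 had log2 fold changes of -0.05, 0.02 and 0.10, with groups that overlapped. Uqcrq, a small subunit on chromosome 11 (53427922 to 53430831, minus strand, GRCm38), measured 24.8, 25.4 and 32.1 CPM in the WT and 22.2, 21.7 and 21.6 CPM in the KO libraries. The KO values were below all WT values and close to each other. The log2 fold change was -0.33 ± 0.14 (SE, n = 3 per group), with an unadjusted p of 0.0459 and an adjusted p of 0.482 (edgeR). Without WT library 3, the highest of the 6, it was -0.22. The other small subunits, Uqcr10, Uqcr11, Uqcrb and Uqcrh, had values between -0.18 and -0.10.

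Complex IV reduces oxygen. It had the lowest median of the 5 complexes, and its subunits split into those used in all tissues and the tissue isoforms. All 11 ubiquitous subunits (Cox4i1, Cox5a, Cox5b, Cox6a1, Cox6b1, Cox6c, Cox7a2, Cox7b, Cox7c, Cox8a and Ndufa4) had a negative log2 fold change, with a median of -0.18 and a range from -0.30 to -0.01, and none passed the test. Leaving out 1 library left 9 of 11 negative without WT library 3, 10 without KO library 1 or KO library 2, 8 without KO library 3, and 11 without WT library 1 or 2. Each library's deviation from the mean of all 6, taken as the median over the 11 genes on the log2 scale, was 0.02, 0.01 and 0.21 in WT and -0.12, -0.01 and -0.14 in KO. The groups did not overlap in this value, but WT library 2 and KO library 2 were next to each other.

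Cox5a, a matrix-side subunit on chromosome 9 (57521232 to 57532424, plus strand), was at 31.2, 35.1 and 35.4 CPM in WT, against 26.2, 29.3 and 27.6 CPM in KO. Each KO library was below each WT library, with means of 33.9 ± 2.36 and 27.7 ± 1.57 CPM (SD, n = 3 each). The log2 fold change was -0.29 ± 0.12 (SE), with an unadjusted p of 0.0421 and an adjusted p of 0.476 (edgeR), and it lay between -0.36 and -0.27 when 1 library was left out. Cox6b1, on the intermembrane side and encoded on chromosome 7 (30616861 to 30626151, minus strand), had 53.3, 57.5 and 62.6 CPM in WT and 45.4, 50.6 and 45 CPM in KO. These groups did not overlap either, and the log2 fold change was -0.30 ± 0.12 (SE, n = 3 per group, unadjusted p = 0.044, adjusted p = 0.477, edgeR).

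Cox6a1, a subunit that spans the inner membrane, measured 51.7, 55.7 and 55.6 CPM in the WT and 47.1, 50.7 and 46.3 CPM in the KO libraries, lower in every KO library (log2 fold change -0.18 ± 0.11). Cox7a2 was at 39.3, 36.0 and 42.8 CPM in WT, against 34.0, 35.2 and 34.2 CPM in KO, also without overlap (-0.19 ± 0.12). Cox4i1, the regulatory subunit and the highest of the complex in CPM, had overlapping groups, with 88.6, 105 and 102 CPM in WT and 92.1, 106 and 92.9 CPM in KO (-0.03 ± 0.14, adjusted p = 0.959, edgeR). Ndufa4 (-0.01) and Cox8a (-0.07) had overlapping groups as well. Cox5b, at 13.7, 11.4 and 14.1 CPM in WT and 13.7, 11.3 and 9.24 CPM in KO, had a value of -0.20 that rested largely on KO library 3, and it was -0.07 without that library.

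Cox7c varied more between libraries than any other ubiquitous subunit, with 2.28, 2.08 and 4.31 CPM in WT and 4.51, 1.40 and 1.90 CPM in KO. Reads that fit several places were not counted, and 23% of the 50-base windows of Cox7c transcripts also occur in transcripts of other genes, up to 53% in its most affected transcript. Its level is therefore uncertain, and so are those of the 14 other subunits with more than 10% of such windows, among them Uqcrb (43.2%), Ndufb4 (37%), Atp5h (36.9%), Atp5g2 (36.7%) and Ndufs3 (35.8%). Cox5b (21.8%), Cox6a1 (12.3%), the partner of Cox6a2 in the shares below, and Atp5g1 (11.1%) also belong to them.

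**Figure D4:**
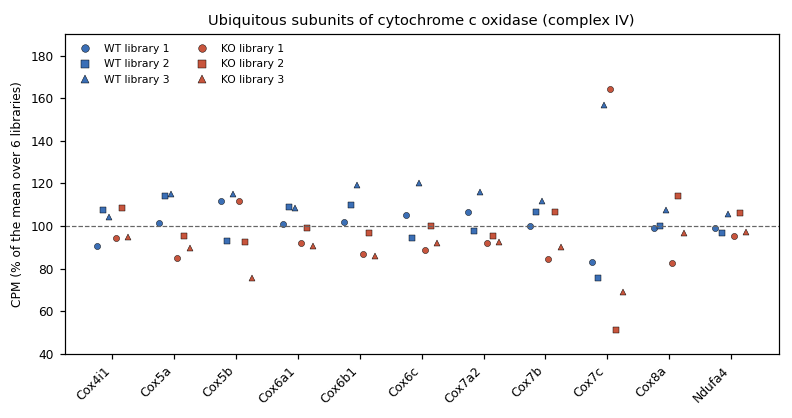
CPM of the 11 ubiquitous complex IV subunits in each library (y axis, percent of the gene's mean over the 6 libraries, dashed line at 100), with 1 column of points per gene on the x axis, blue for WT and red for KO and the marker shape for the library number. For Cox5a, Cox6a1, Cox6b1 and Cox7a2 all red points lie below all blue points, for the other 7 they overlap, and Cox7c spreads most.

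The tissue isoforms of complex IV were compared with their ubiquitous partners as a share of the pair, per kilobase of annotated exon. Cox4i2, an isoform of lung and of cells that respond to low oxygen, was counted well above the tissue isoforms other than Ndufa4l2. The share of Cox4i2 was 42.4%, 28.5% and 42.8% of Cox4i1 and Cox4i2 together in WT, and 36.4%, 28.0% and 44.2% in KO. Ndufa4l2, the hypoxia-induced relative of Ndufa4, was at 46.2%, 38.6% and 46.6% of its pair in WT and at 36.5%, 31.3% and 47.0% in KO. The shares overlapped between the genotypes for both genes, and the widest exact binomial 95% interval of a single library ran from 33.7% to 39.4% (Ndufa4l2 in KO library 1), which covers counting error only. These shares depend on the length used: per kilobase of the longest coding transcript, chosen after the data had been seen, Cox4i2 was at 17.1% to 29.6% and Ndufa4l2 at 17.2% to 28.7% of their pairs over the 6 libraries, again with overlap.

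Both isoforms varied together by library. Cox4i2 had 33.1, 21.3 and 38.9 CPM in WT and 26.8, 20.9 and 37.5 CPM in KO, and Ndufa4l2 had 24.7, 17.7 and 26.8 CPM in WT and 16.0, 14.1 and 25.1 CPM in KO. WT library 2 and KO library 2 were the lowest of their groups for both. All 12 smooth muscle and pericyte markers were detected, with a summed level of 247.3, 251.8 and 302.8 CPM in WT and 231.8, 207.9 and 286.4 CPM in KO, 6 of them higher and 6 lower in KO. Of the 12, 3 were lower in KO without overlap (25%, against 9.2% of all genes tested) and 0 were higher without overlap, against 8.59%. With edgeR 0 of the 12 passed the test, and DESeq2 called 1, against 0.716% of all its genes. The summed level of the 12 markers was lowest in library 2 of KO but not of WT, where library 1 was lowest. Each library's deviation from the mean of all 6, as the median over the 12 markers, gave another order. On the log2 scale it was 0.2, -0.03 and 0.17 in WT and -0.11, -0.17 and 0.23 in KO, lowest in library 2 of both groups. The part of these cells in the level of the 2 isoforms was not tested. The log2 fold change was -0.13 ± 0.28 for Cox4i2 and -0.32 ± 0.25 for Ndufa4l2 (SE, n = 3 per group, adjusted p = 0.875 and 0.649, edgeR). With 1 library left out, Cox4i2 ran from -0.38 (without WT library 2 or KO library 3) to 0.04 (without WT library 3), and it was also above 0 without KO library 2 (0.02). Ndufa4l2 ran from -0.62 without KO library 3 and -0.52 without WT library 2 to -0.20 without KO library 2.

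The striated muscle isoforms were low. Cox6a2, the heart and skeletal muscle partner of Cox6a1 (chromosome 7, 128205435 to 128206387, minus strand), had the highest log2 fold change of the 81 genes, 0.86 ± 0.55 (SE, n = 3 per group, adjusted p = 0.601, edgeR). It measured 0.808, 5.05 and 2.90 CPM in the WT and 5.24, 6 and 4.55 CPM in the KO libraries, so that WT library 2 lay within the KO range. The value fell to 0.38 without WT library 1 and rose to 1.54 without WT library 2. As a share of Cox6a1 and Cox6a2 it was 1.59%, 8.56% and 5.12% in WT and 10.3%, 10.9% and 9.21% in KO, without overlap (exact permutation test, two-sided p = 0.1, the smallest that 3 against 3 allows, adjusted p = 0.4 over 8 pairs). The libraries low in Cox6a2, WT 1 and WT 3, were also the 2 with the lowest sums of AT2, of airway and of macrophage markers. The cardiac muscle sum was lowest in WT 1 too (18.33 CPM). In WT 3 it was 60.03 CPM, above every KO library (25.66 to 34.08 CPM). All 8 AT2 markers were detected and had a positive log2 fold change (0.64 to 0.92). Of the 10 airway and 10 macrophage markers, 9 and 7 were higher in KO. None of these AT2, airway or macrophage markers passed the test. The part of any of these cell types in the level of Cox6a2 was not tested.

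Cox7a1, the muscle partner of Cox7a2 (chromosome 7, 30184144 to 30186078, plus strand), had the lowest log2 fold change, -0.87 ± 0.45 (SE, n = 3 per group, adjusted p = 0.539, edgeR). It rested on 24, 37 and 24 reads in WT and on 13, 11 and 16 reads in KO, or 0.588, 1.09 and 1.12 CPM against 0.559, 0.405 and 0.552 CPM. The KO values were all below the WT values, although KO library 1 was just under WT library 1. Of the 14 cardiac muscle markers, 13 were tested, 12 of these had a negative log2 fold change, and none was at 0 in every library. Their summed level was 18.33, 89.41 and 60.03 CPM in WT and 34.08, 29.94 and 25.66 CPM in KO, lowest in WT library 1, and their part in the level of Cox7a1 was not tested. Without WT library 1 the value for Cox7a1 was -1.13.

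Cox8b, a muscle and brown fat isoform, was counted with 8, 31 and 2 reads in WT and with 5, 19 and 18 in KO, and no direction could be given (0.33 ± 0.84, and -0.09 without WT library 3). Cox6b2, the testis partner of Cox6b1, was at 2.57, 3.82 and 4.35 CPM in WT, against 4.13, 4.97 and 3.45 CPM in KO (0.23 ± 0.26, SE, n = 3 per group), and the value fell to 0.03 without WT library 1 and to 0.06 without KO library 2. Its share of the pair was 2.99%, 4.07% and 4.26% in WT and 5.49%, 5.90% and 4.67% in KO, which did not overlap (exact permutation p = 0.1, adjusted p = 0.4 over 8 pairs), although its CPM overlapped between the groups. Per kilobase of the longest coding transcript the share was 4.85% to 9.40%, also without overlap. Cox7a2l, which helps to join complexes III and IV into supercomplexes, had 36.0, 43.6 and 41.8 CPM in WT and 43.0, 47.4 and 46.8 CPM in KO (0.18 ± 0.13, adjusted p = 0.631, edgeR), and 17.8% of its windows occur in other genes.

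**Figure D5:**
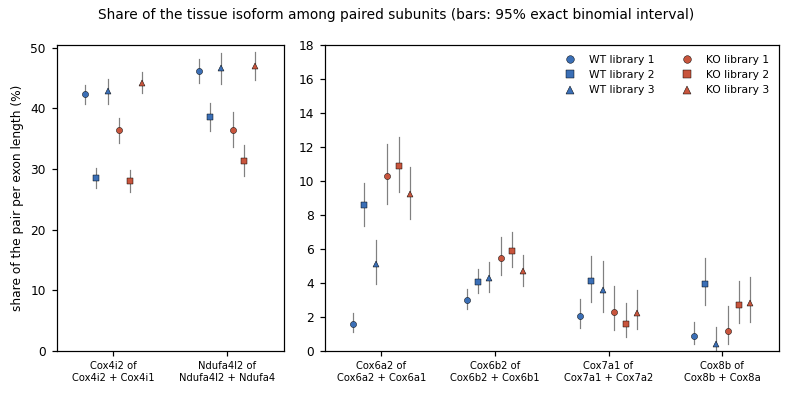
Share of each tissue isoform among itself and its ubiquitous partner (y axes, percent of CPM per kilobase of exon) for 6 pairs on the x axis, with 1 point per library, blue for WT and red for KO, and bars for the exact binomial 95% interval of the counts. Cox4i2 and Ndufa4l2 (left panel) make up 28.0% to 47.0% of their pairs (17.1% to 29.6% per kilobase of the longest coding transcript, not drawn), the 4 others (right panel) stay at 10.9% or below, and the KO points lie above all WT points for Cox6a2 and Cox6b2.

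Complex V makes ATP. Its F1 part, the catalytic head in the matrix, held the 2 genes with the highest CPM of the 81. Atp5b, the catalytic beta subunit on chromosome 10 (128083273 to 128090391, plus strand), measured 219, 187 and 186 CPM in the WT and 167, 162 and 169 CPM in the KO libraries. Each KO library was lower than each WT library, with means of 197 ± 18.9 and 166 ± 3.86 CPM (SD, n = 3 each) and a log2 fold change of -0.25 ± 0.15 (SE, adjusted p = 0.581, edgeR). Atp5a1, the alpha subunit that alternates with beta in the head, was at 207, 178 and 184 CPM in WT, against 182, 185 and 185 CPM in KO, and its groups overlapped (-0.04 ± 0.14). The gamma, delta and epsilon subunits Atp5c1, Atp5d and Atp5e had log2 fold changes of 0.05, -0.10 and -0.17.

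Subunit c, which forms the rotating ring in the membrane, is made from 3 genes with the same mature protein. Atp5g3 had the highest counted level, at 57.7, 50.5 and 63.6 CPM in WT and 44.6, 50.3 and 49.7 CPM in KO. It was lower in every KO library although WT library 2 and KO library 2 were close (-0.25 ± 0.13, SE, n = 3 per group, adjusted p = 0.551, edgeR). Its groups overlapped with DESeq2, with RLE or upper-quartile scaling, and with mitochondrially encoded genes removed. Atp5g1 had the lowest log2 fold change of the complex (-0.42 ± 0.21), with 5.12, 4.17 and 5.34 CPM in WT and 4.21, 3.49 and 3.24 CPM in KO. KO library 1 lay just above WT library 2, so the groups overlapped. Atp5g2 had the highest log2 fold change (0.25 ± 0.51) at 1.10, 0.852 and 1.97 CPM in WT and 2.28, 1.62 and 0.724 CPM in KO, and its direction turned without KO library 1 (-0.16) or WT library 2 (-0.02). Of the windows of Atp5g2, 36.7% occur in other genes, up to 100% in its most affected transcript. For Atp5g1 the values were 11.1% and 66%, and for Atp5g3 0%. Reads that fit several places were not counted, so the order of the 3 genes is uncertain. The other stalk and membrane subunits had values between -0.20 and 0.08, and Atp5s, a regulatory factor matched by the name rule, had 0.23 ± 0.33.

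Between genes, levels were compared per kilobase of annotated exon. The median over the members of a complex was 15.6 CPM per kilobase for complex I, 16.9 for complex II, 19.8 for complex III, 26.0 for complex IV and 20.8 for complex V. Within complex I the mean level of a gene ranged from 1.83 (Ndufb2) to 52.6 CPM per kilobase (Ndufa6), and within complex IV from 1.26 (Cox8b) to 74.0 (Cox6b1). Cox6b1, Cox6a1 (72.9), Cox4i1 (63.1) and Cox8a (61.8) were the highest of all 81, followed by Atp5a1 and Atp5mpl (59.6 each). The level of Cox6a1 is uncertain because 12.3% of its windows occur in other genes. The order depends on the length used, because many genes have long alternative transcripts. Per kilobase of the longest coding transcript, Cox4i1 (128 CPM per kilobase), Atp5e (106) and Atp5b (94.7) came first, and complex IV still had the highest median (39.4, against 18.1 for complex I, 24.3 for complex II, 25.6 for complex III and 36.9 for complex V).

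The subunits encoded in mitochondrial DNA were counted far more deeply and varied far more between libraries. Of the 13, 7 were tested and together had 237200, 366200 and 564700 CPM in WT and 450900, 384400 and 318100 CPM in KO. The genotypes overlapped, as WT library 1 was the lowest and WT library 3 the highest of all. Per read on the 81 nuclear genes there were 95.6, 152 and 216 reads on the mitochondrially encoded subunits in WT and 196, 156 and 135 in KO. The lowest log2 fold change among the 7 was that of mt-Nd6 (-0.49 ± 0.39) and the highest that of mt-Nd1 (0.09 ± 0.65, and -0.17 without WT library 1), with adjusted p of 0.657 at the lowest (edgeR), and 0 of the 7 had a 95% interval within a 2-fold change. Their median SD within groups was 0.47 on the log2 scale, against 0.14 for the nuclear genes.

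The 6 other mitochondrially encoded genes were listed at or near 0. The sums over all 6 libraries were 38 reads for mt-Nd3, 6 for mt-Co3, 2 for mt-Atp6, 1 for mt-Co2 and 0 for mt-Nd4l and mt-Atp8, next to 16548557 for mt-Co1. Of the 50-base windows of mt-Co2, mt-Co3, mt-Atp6, mt-Nd3 and mt-Nd4l, 98% to 100% also occur in transcripts annotated on chromosome 1, and reads that fit several places were not counted. For mt-Atp8 0% of the windows did. The level of the 5 genes with shared windows can therefore not be read from the counts, the zero count of mt-Atp8 has no such value beside it, and mt-Co1 (51.1% of windows) and mt-Nd4 (62.2%) may be understated.

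Other genes that work with the chain were read from the same fit. Among 8 tested subunits and carriers that the naming rule does not cover, such as Ndufab1, Cyc1 and cytochrome c itself, 0 passed the test and the median log2 fold change was -0.06. Cycs had the lowest value (-0.35 ± 0.30) and Dhodh, a pyrimidine synthesis enzyme that feeds electrons to the quinone pool, the highest (0.22 ± 0.19). Of 45 assembly factors, 0 passed, 20 were lower and 25 higher in KO, and the median was 0.07. Ndufaf6, a complex I assembly factor, had 2.15, 2.17 and 2.53 CPM in WT and 1.33, 1.54 and 1.48 CPM in KO, all KO values below the WT values (-0.65 ± 0.26, adjusted p = 0.474, edgeR). Lyrm7, which serves complex III assembly, had the highest value (0.54 ± 0.42, and 0.22 without KO library 2). Of the 45 assembly factors, 6 were lower without overlap (13.3%, against 9.2% of all genes tested). A further 3 were higher without overlap, against 8.59% of all genes.

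Of the regulators of mitochondrial biogenesis, 15 were tested and 0 passed (median 0.04). Pprc1, a coactivator of the PGC-1 family, had the lowest log2 fold change, with 15.9, 14.3 and 14.7 CPM in WT and 9.20, 9.20 and 12.4 CPM in KO. The groups did not overlap, and the value was -0.54 ± 0.16 (SE, n = 3 per group, unadjusted p = 0.0116, adjusted p = 0.365, edgeR). Its relative Ppargc1b was the highest (0.69 ± 0.61, and 0.28 without WT library 1) at less than 1 CPM in every library. Of the 17 tricarboxylic acid cycle and pyruvate dehydrogenase genes, 0 passed, 12 were lower and 5 higher, with a median of -0.07. Of the 17, 4 were lower without overlap (23.5%, against 9.2% of all genes tested). A further 2 were higher without overlap, against 8.59% of all genes. Mdh2, mitochondrial malate dehydrogenase, measured 55.9, 57.4 and 49.6 CPM in the WT and 41.5, 44.7 and 46.4 CPM in the KO libraries, without overlap (-0.30 ± 0.12, unadjusted p = 0.0408, adjusted p = 0.474, edgeR, n = 3 per group). Suclg2, a subunit of succinyl-CoA ligase, was the highest, at 9.08, 9.43 and 10.8 CPM in WT and 11, 11.2 and 13.1 CPM in KO, with all KO values above the WT values (0.27 ± 0.15, adjusted p = 0.553, edgeR).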

How the data were processed

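Lung ECs of AngII-infused WT and leene-KO mice were sequenced in 3 libraries per group, with genotype and replicate number as given in the sample titles. What the authors deposited were raw counts of reads for each gene, in a separate table for every library. Per the file headers, featureCounts 2.0.0 counted reads over the exons of Ensembl release 84 (GRCm38), in the reverse orientation and with unique alignments only. The submitters' processing notes name bcl2fastq 2.18 and STAR 2.5.4b. Reads with several alignments were not counted, which lowers genes with near-identical copies. Symbols came from GENCODE's annotation of GRCm38 (47310 of 47729 genes). No table held a row without a gene. The authors' TPM values were not used here.

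Genes were kept by filterByExpr, scaled by TMM and tested with glmQLFit and glmQLFTest of edgeR 4.0.16 in R 4.3.3, with genotype as the only term and p adjusted by the Benjamini-Hochberg method over the 14625 genes tested. Log2 CPM values used a prior count of 2. The fits were first tested on simulated data with known changes. No pair of libraries held identical counts. Total counts of 24464324 to 35184063 give the depth, and genes below 1 CPM rest on few reads. Intervals of shares are exact (Clopper-Pearson, SciPy) and cover counting error only. Sharing of reads was read as the percent of 50-base windows of a gene's transcripts found in transcripts of other genes on either strand.

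Genes and lists were chosen with earlier results of these data known. Named with values were the core subunits and tissue isoforms, the highest and lowest log2 fold change of each complex and of each list of other pathway genes, and the 5 subunits with the smallest p, except 1 subunit, which is not reported here by itself but is part of all counts and medians. The remaining genes named above were singled out after their values were seen. Alternatives were DESeq2 1.42.0, limma-voom (limma 3.58.1), edgeR's likelihood ratio test, the option legacy set to FALSE, robust dispersions, RLE, upper-quartile and total-count scaling, removal of mitochondrially encoded genes, no filter, at least 10 counts in every library, offsets for GC content and length (loess, span 0.5), the replicate number as a block, and each library left out. Leaving out genes that share reads and dividing by the longest coding transcript (levels and isoform shares) were added after the data had been seen.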

Additional observations from a re-analysis of the deposited data

How the results depend on the processing

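No subunit gene passed the test under any of the 20 alternative settings. The median log2 fold change of the 81 subunits lay between -0.14 and -0.04 under all of them except total-count scaling, and at -0.04 with the 15 genes that share reads left out. Total-count scaling moved the median of all genes from 0.03 to -0.13 and the subunits to -0.23 (complex I -0.22, II -0.20, III -0.26, IV -0.31, V -0.22), which is 0.09 below the median of all genes, as with TMM. Like all genes, the named genes moved down, and 5 turned negative: Atp5c1 (-0.12), Ndufs1 (-0.07), Ndufs8 (-0.16), Uqcrc2 (-0.13) and Uqcrfs1 (-0.06). Of the 48 named genes, 19 changed sign under at least 1 setting, and the cause was not tested. Per kilobase of the longest coding transcript the median level of the subunits was 24.3 CPM in place of 18.1, since that length is mostly shorter.

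Of all genes, 16 passed with edgeR's quasi-likelihood test, 187 with DESeq2, 26 with limma-voom, 211 with the likelihood ratio test, 26 with RLE, 31 with upper-quartile and 123 with total-count scaling, 152 without a filter and 34 with GC and length offsets. Leaving out 1 library gave 0 to 791 such genes (791 without WT library 2, 0 without any 1 of the KO libraries), 14 to 35 subunits whose groups did not overlap (fewer libraries make this easier, and over all genes 13.3% to 20.2% were then lower and 12% to 21.2% higher without overlap), and medians of -0.14 to -0.04 for all subunits, -0.11 to -0.03 for complex I, -0.12 to -0.03 for complex II, -0.17 to -0.05 for complex III, -0.25 to -0.10 for complex IV and -0.13 to -0.04 for complex V.

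Same-numbered libraries were not paired by the labels, and their deviations from the group means correlated at -0.0814, 0.219 and 0.0111. The value for library 2 was the highest of all pairs of a WT and a KO library, and its cause was not tested. With the replicate number as a block, 0 of all genes passed (4 with GC and length offsets added), 0 subunits passed, and the subunit median was -0.07 (-0.14 with the offsets). WT library 1 correlated best with KO library 3 (0.192), WT library 3 with KO library 1 (0.194) and WT library 2 with KO library 2. Subunits below 1 CPM, such as Cox7a1 and Cox8b, are limited by depth.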
